A study of Mus musculus with 4 samples.

Results

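Type 1 conventional dendritic cells (cDC1) of the mouse spleen with Ccr7 RNA but little or no Fscn1 RNA are described here, as 431 cells. By the Ccr7 and Fscn1 levels of the class they stand between immature cDC1 and cDC1 with both RNAs. They were chosen by counts of unique molecular identifiers (UMIs, 1 per captured molecule). A cell entered with at least 3 UMIs of the antibody to XCR1 and at most 2 of that to CD172a, which is the cDC1 surface type. It also needed at least 2 Ccr7 UMIs, at most 1 Fscn1 UMI and no UMI of the T cell gene Cd3e or the B cell gene Cd79a. Library 1 held 183 such cells and library 2 held 248, out of 13960 cDC1 by the same antibody gate, 29752 cells that passed the quality filter and 31790 barcodes. They are called intermediate cDC1 below. The same antibody gate with 0 UMIs of both RNAs gave 12174 immature cDC1 (4785 and 7389), and with at least 5 Ccr7 and at least 2 Fscn1 UMIs it gave 277 late cDC1 (127 and 150). These names give the order of the classes in Ccr7 and Fscn1 level, not an order in time or of each cell.

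cDC1 take up dying cells and present their antigens to CD8 T cells. In the absence of infection some of them mature on their own, switch on the chemokine receptor CCR7 and leave for the T cell zone, where they can make T cells tolerant. FSCN1, which bundles actin, marks fully mature dendritic cells, and the liver X receptors (LXR) named in the study's title are nuclear receptors that sense cholesterol derivatives.

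The data are CITE-seq, which reads messenger RNA and antibody barcodes in the same cells, from spleens of wild-type (WT) C57BL6 mice in steady state, with no other genotype or agent. Per the labels, dendritic cells of 2 mice were enriched by negative selection and stained with 160 barcoded antibodies and 9 isotype controls, and a sort mixed 50000 to 60000 cDC1, 10000 cDC2 and 10000 random live cells. Both sorts took CD64-negative, CD11c-positive, MHC class II-positive cells, so a share of cells below reflects the sort. The labels give replicates 1 and 2 without saying that each is a mouse of its own, so the p-values here speak of spread between 2 libraries, which can be technical. All values are given for library 1 and then library 2, numbered by the barcode suffix. The libraries held 99617992 and 129565040 RNA UMIs and 13667427 and 17153368 antibody UMIs. Among all barcodes 61 occurred in both libraries, and 0 of these were intermediate cells.

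The gate rests on a pair of antibodies, whose 15-base barcodes are shown because they decided which cells were counted. XCR1 is the chemokine receptor that defines cDC1, and CD172a, also called SIRPα, marks cDC2 and was required to be low or absent.
XCR1: tccattacccacgtt
CD172a: gattcccttgtagca

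Intermediate cells had a median of 9113 and 8250.5 RNA UMIs, against 9197 and 8149 in immature and 7822 and 6813.5 in late cells. Their median Ccr7 count was 8 and 6 UMIs per cell, with a range of 2 to 49 and 2 to 47. Fscn1 had 0 UMIs in 169 and 226 cells and 1 UMI in 14 and 22. Intermediate cells made up 3.28% of gated cDC1 in library 1 (exact binomial 95% interval 2.83 to 3.79) and 2.96% in library 2 (2.60 to 3.34), intervals that cover counting error only. Cells with at least 3000 UMIs were also thinned to 3000 each, with cutoffs lowered to at least 1 Ccr7 UMI and 0 Fscn1 UMIs. The late cutoffs were lowered too. The share was then 5.36% and 4.28% of the gated cells. The same deep cells without thinning, at the main cutoffs, gave 3.24% and 2.94%. Thinning and cutoffs changed together, so an effect of depth alone was not measured.

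The values that chose the cells, and the markers proposed with them, are described without a test. Levels are CPM, the UMIs of a gene per 1000000 RNA UMIs of the class. Ccr7 was at 1292 and 1084 CPM in intermediate and 3224 and 3170.2 in late cells, and Fscn1 at 8.28 and 9.65 and at 1288 and 1504. Il12b, the shared subunit of interleukins 12 and 23, was at 24.1 and 30.9 CPM in immature, 1232 and 1063 in intermediate and 1387 and 1461 in late cells. Gclc, the catalytic subunit of the enzyme that starts glutathione synthesis, was at 16.1 and 15.2, 519 and 411 and 792 and 817 CPM. These levels set intermediate apart from immature cells in both libraries, and Il12b of the intermediate class was nearer to the late than to the immature level. That level averages over unlike cells. An Il12b UMI was held by 58.5% and 59.3% of intermediate and 78.0% and 81.3% of late cells. Without T cell UMIs and doublets Il12b was at 1353 and 1329 CPM in intermediate and 1947 and 2017 in late cells. Ccl22, a chemokine for CCR4-bearing T cells, was at 3.25 and 5.86, 198 and 254 and 239 and 261 CPM. Apol7c, an apolipoprotein L of phagocytes, was at 290.2 and 229.8, 1752 and 1295 and 2046 and 2082 CPM. For Ccl22 the intermediate and late libraries overlap.

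The label was checked against cDC1 genes whose proteins the gate did not use. Clec9a was at 220.0 and 244 CPM in intermediate cells against 34.8 and 41.3 in cDC2 with the same Ccr7 and Fscn1 counts, Naaa at 546 and 585 against 126 and 149 and Cadm1 at 339.5 and 366 against 29.3 and 45.7. These levels go with the label. The RNAs of the antibody targets follow from the gate: Xcr1 was at 314 and 369 CPM in intermediate cells against 43.95 and 74.7 CPM in cDC2 with the same Ccr7 and Fscn1 counts. Sirpa, the gene of CD172a, was at 5.92 and 4.39 CPM against 198 and 177. Under the same RNA gate cDC2 had little Il12b (10.99 and 81.5 CPM) and Gclc (13.4 and 18.5 CPM).

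At the edges of the gate, over both libraries together and with no test, the 841 cDC1 with 1 Ccr7 UMI stood at 39.9 CPM of Il12b and 25.4 of Gclc. The 96 cells just inside, with 2 Ccr7 UMIs, stood at 145 and 133 CPM. At the other edge, the 36 cells with 1 Fscn1 UMI had Il12b at 1192 CPM, and 18 cells with 2 Fscn1 UMIs, just outside, had it at 1210 CPM. Along the antibody edges, 75 intermediate cells had 3 XCR1 UMIs and 88 were left out with 2, while 66 had 2 CD172a UMIs and 33 were left out with 3. Il12b was at 1062 and 1186 CPM on the sides of the XCR1 edge and at 735 and 551 on those of the CD172a edge. A further 103 cells met the gate save for a Cd3e or Cd79a UMI. They stood at 356 CPM of Ccr7 but only 40.5 of Il12b and 36.5 of Gclc.

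T cell RNA was found with the intermediate cells, and its values are given before the results because it touches several of them. Cells with a UMI of Cd3d, Cd3g, Trac, Trbc1 or Trbc2 made up 15.3% (95% interval 10.4 to 21.3) and 15.3% (11.1 to 20.4) of intermediate cDC1, against 7.11% and 5.94% of immature and 9.45% and 6.0% of late cells. The share was highest at 2 Ccr7 UMIs (17.1% and 22.95%) and at 3 to 4 (30% and 26.2%), and 11.1% and 4.55% at 20 or more. All 7 tested T cell markers were higher than in immature cells. Their summed level was 148 and 186 CPM, against 13.4 and 16.99 in immature cells, with Cd3e at 0 by the gate. Scrublet, a doublet caller, marked 9.29% and 14.9% of intermediate cells, 1.13% and 2.67% of immature and 18.1% and 19.3% of late cells. Of the B cell genes, Cd79b was at 1.17 and 1.17 CPM in immature and 3.55 and 3.51 in intermediate cells and Ighm at 192 and 206 and 177 and 201, while Ms4a1, which encodes CD20, was at 14.7 and 11.1 CPM in immature and 43.2 and 44.3 in intermediate cells (log2 1.96, SE 0.16, edgeR adjusted p = 2.07e-08). A UMI of Cd79b, Ms4a1 or another B cell gene was held by 25.7% and 22.98% of intermediate cells, against 12.5% and 9.07% of immature and 21.3% and 15.3% of late ones, and by 41.7% and 34.1% of those with 20 or more Ccr7 UMIs. The part of these cells in the results was not tested. The counts over all genes below are also given without cells that hold a T cell UMI or were called doublets, which left 148 and 188 intermediate cells. The counts of the gene lists at the first step then differed by at most 1 gene, save for the T cell and cell cycle lists. Of the cell cycle list 23 genes were lower in place of 26. Of the T cell list 1 gene was still tested, and it was still higher. Il7r, of that list, was then at 0.46 and 0.31 CPM in immature and 5.15 and 5.53 in intermediate cells. In late cells Il7r was at 52.6 and 25.3 CPM. At the second step the largest change was in the cell cycle list, with 24 genes lower in place of 7.

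**Figure D1:**
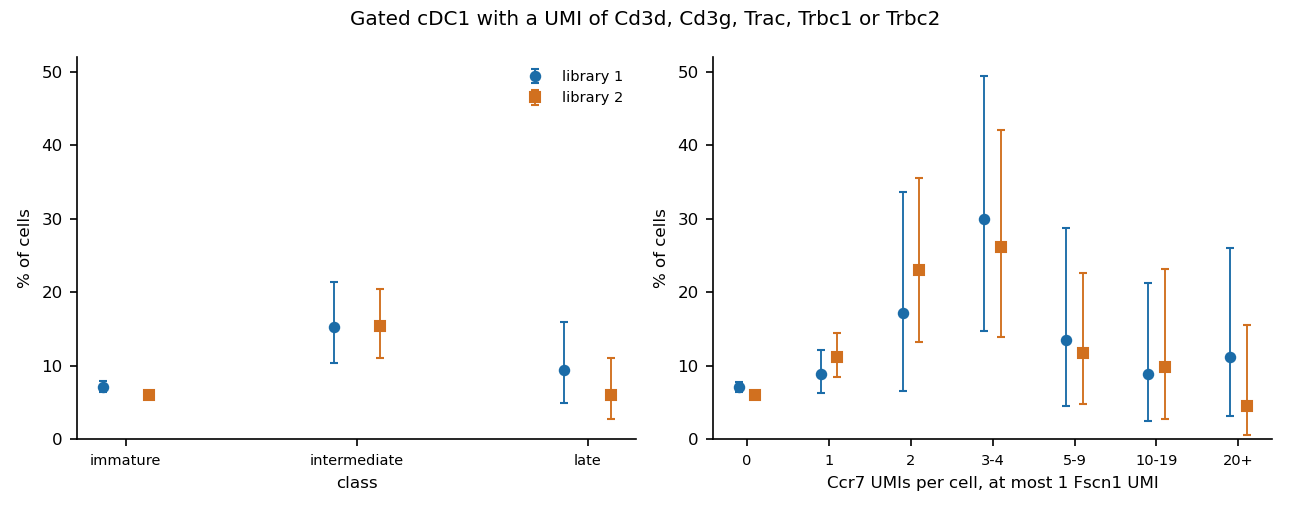
Share of cells with at least 1 T cell UMI (percent, vertical axis) by cDC1 class and by Ccr7 UMIs per cell, for each library, with exact binomial 95% intervals as bars. The share peaks at 3 to 4 Ccr7 UMIs (30% and 26.2%) and is lower both in cells with 0 Ccr7 UMIs (7.05% and 5.96%) and in cells with 20 or more.

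The first comparison asked which RNAs set intermediate apart from immature cDC1. Among 9137 tested genes, 1636 rose (17.9%) and 875 fell (9.58%) by edgeR's quasi-likelihood test with Benjamini-Hochberg adjustment at 0.05. With library totals in place of TMM scaling the median over all genes moved by -0.16 on the log2 scale and the split became 1227 higher and 2098 lower. Folds of about this size or smaller thus depend on the scaling. Without cells holding a T cell UMI and without doublets, 1469 were higher and 938 lower, of which 1382 and 738 were shared with the first counts.

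**Figure D2:**
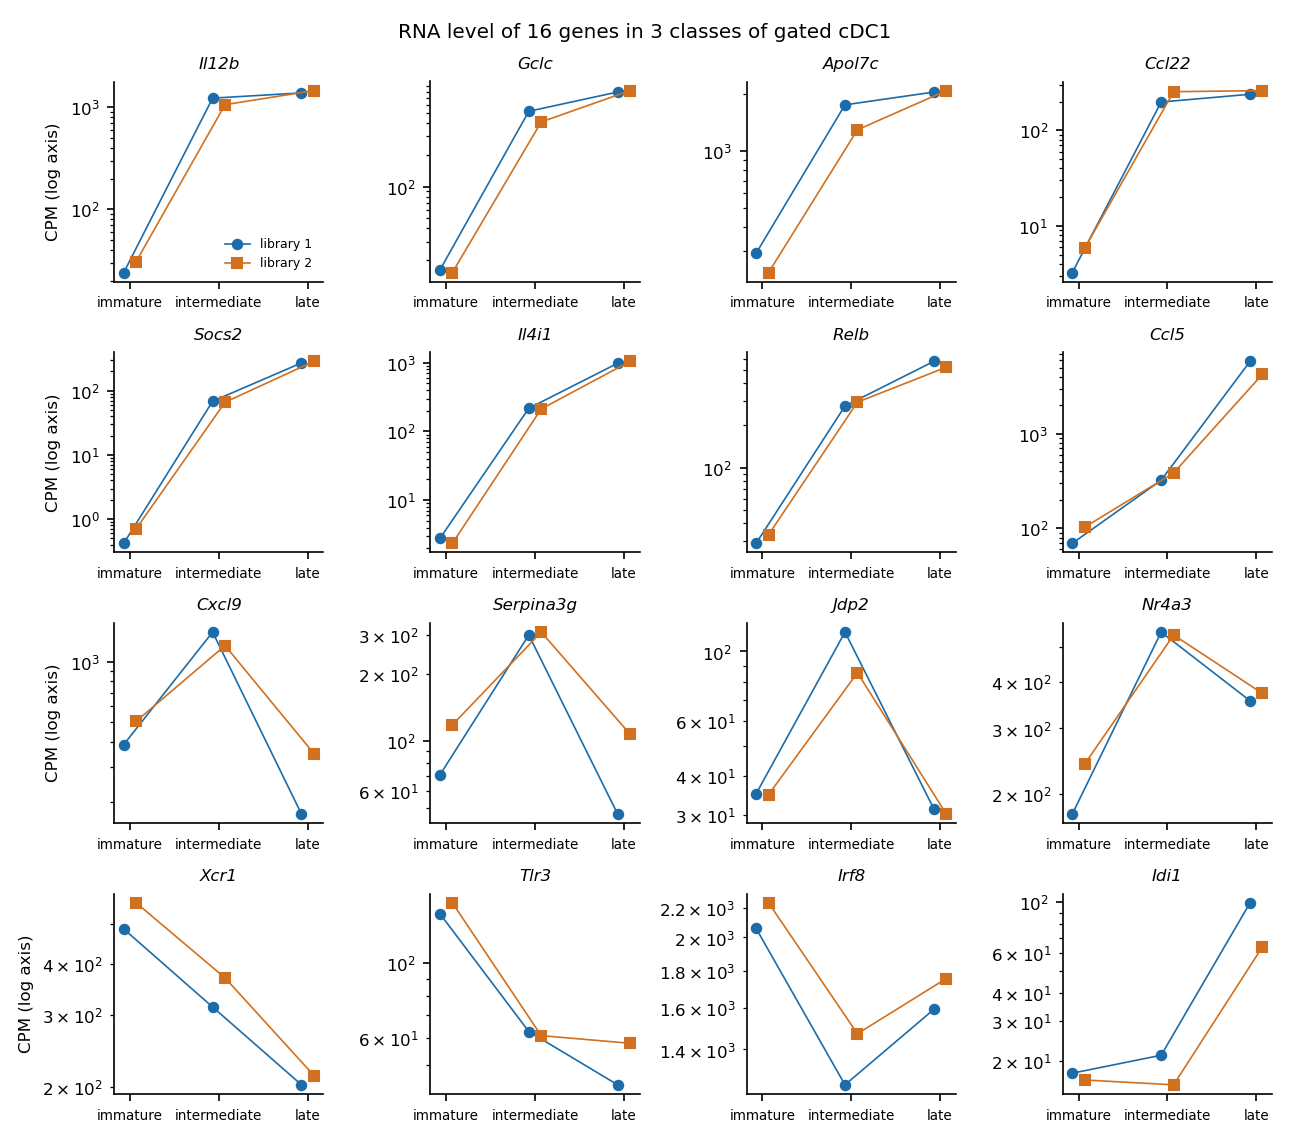
Level of 16 genes (CPM, log axis) in immature, intermediate and late cDC1, 1 point per library. Socs2, Il4i1 and Relb climb at both steps, Cxcl9 is highest in intermediate cells (1413 and 1209 CPM), and Xcr1 falls at both steps.

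Genes of the maturation program led the list of increases. Of 14 tested mature dendritic cell markers, 14 were higher in intermediate than in immature cells (median log2 2.76, against 0.00 over all genes), and 12 were higher and 2 lower again in late cells. These markers are known from mature dendritic cells and several vary with Ccr7, which chose the cells. Socs2, a suppressor of cytokine receptor signalling, was at 0.4202 and 0.709 CPM in immature, 68.6 and 66.2 in intermediate and 271 and 287 in late cells (log2 6.99, SE 0.19, edgeR adjusted p = 5.71e-15 for the first step and log2 2.10, SE 0.12, edgeR adjusted p = 7.23e-10 for the second). Il4i1, a secreted oxidase of amino acids, was at 2.79 and 2.36, then 216 and 212 and 976 and 1040.2 CPM (log2 6.55, SE 0.11, edgeR adjusted p = 3.72e-18 for the first step). Both genes were nearly silent in immature cells, and intermediate cells in either library stood far below late ones.

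Cacnb3, a regulatory subunit of voltage-gated calcium channels, went from 1.13 and 1.72 to 81.6 and 75.01 CPM (log2 5.90, SE 0.16, edgeR adjusted p = 6.94e-15). Cd63, a tetraspanin of late endosomes, went from 3.295 and 2.13 to 95.2 and 90.4 and then 839 and 838 CPM (log2 5.29, SE 0.14, edgeR adjusted p = 5.71e-15 and, for the second step, log2 3.22, SE 0.11, edgeR adjusted p = 6.70e-13). Other genes were at their late level or above it in the intermediate cells. Mab21l3 was at 2.300 and 2.93 CPM in immature, 90.5 and 69.3 in intermediate and 76.7 and 61.2 in late cells, with log2 5.05, SE 0.18, edgeR adjusted p = 1.61e-13 for the first step and log2 -0.16 (edgeR adjusted p = 0.595) for the second. Ccnd2, cyclin D2, was at 3.67 and 4.92, 62.7 and 68.4 and 46.2 and 42.8 CPM (log2 4.08, SE 0.16, edgeR adjusted p = 6.56e-13). The intermediate libraries of both genes lay above the late ones or among them, unlike those of Socs2 and Il4i1. Other large increases at this step were Arl5c, a small GTPase (19.97 and 19.9 to 321 and 297 CPM, log2 4.11, SE 0.09), Glipr2 (log2 4.96, SE 0.15) and Tmem176a (log2 4.29, SE 0.16). Among the 10 by the naming rule was also Trbc2, a T cell receptor gene, given with the T cell values below.

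The NF-kB pathway moved as a group. Of 25 tested members 23 were higher at the first step and 0 lower (median log2 1.71), and 17 were higher again at the second. Relb, the subunit of the noncanonical pathway, was at 28.9 and 33.2 CPM in immature, 275 and 293 in intermediate and 573 and 520.1 in late cells (log2 3.36, SE 0.10, edgeR adjusted p = 7.78e-15, then log2 0.99, SE 0.09, edgeR adjusted p = 3.44e-07). Traf1, an adaptor of TNF receptors, was at 88.7 and 112, 716 and 722 and 1328 and 1448 CPM (log2 3.01, SE 0.08, edgeR adjusted p = 6.94e-15). In these 2 genes the first step was the larger one, by about 3 log2 units against 1. Rel, the c-Rel subunit, was already at 206 and 251 CPM in immature cells and reached 537 and 518 CPM. Tnip3, a partner of the inhibitor TNFAIP3, went from 1.86 and 2.02 to 42.00 and 41.7 CPM (log2 4.59, SE 0.23).

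Of 20 apoptosis regulators 13 were higher and 0 lower than in immature cells (median log2 0.75), and they included both protective and death-promoting genes. Cflar, which blocks caspase-8, was at 21.7 and 22.1 CPM in immature and 188 and 173 in intermediate cells (log2 3.20, SE 0.10, edgeR adjusted p = 2.05e-14). Bcl2l11, which encodes the death promoter BIM, went from 18.6 and 22.7 to 224 and 147 CPM (log2 3.30, SE 0.15, edgeR adjusted p = 5.14e-12) and stood at 153 and 131 in late cells. Bcl2a1b, a protective BCL2 relative, went from 188 and 225 to 1206 and 1056 CPM (log2 2.62, SE 0.10, edgeR adjusted p = 2.39e-13) and was lower again in late cells, at 817 and 735 (log2 -0.50, SE 0.10, edgeR adjusted p = 7.36e-04). Its near-identical copies Bcl2a1a and Bcl2a1d make the split of reads between them uncertain, and after thinning its second step was log2 0.15. Bcl2l1, which encodes BCL-XL, rose by log2 2.06 (SE 0.20) and the death receptor Fas by 1.73 (SE 0.22).

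Of 10 costimulation genes 9 were higher and 1 lower (median log2 2.02). Cd40, the receptor for helper T cell signals, was at 24.7 and 26.6 CPM in immature, 196 and 133 in intermediate and 194 and 274 in late cells (log2 2.83, SE 0.15, edgeR adjusted p = 5.87e-11 for the first step). Cd80, a CD28 ligand, went from 17.9 and 19.2 to 66.3 and 63.2 CPM and was lower again in late cells, at 34.00 and 46.98 (log2 1.96, then -0.62). Cd86, the other CD28 ligand, followed the same course at a smaller size, at 219 and 221, 296 and 269.8 and 160.4 and 186 CPM (log2 0.52, SE 0.09, edgeR adjusted p = 1.13e-04, then log2 -0.66, SE 0.10, edgeR adjusted p = 1.04e-04). Both CD28 ligands were thus highest in RNA in the intermediate cells, in both libraries. They were the 2 mature dendritic cell markers called lower at the second step. Without T cell UMIs and doublets only 1 of the 14 markers was called lower there. Tnfrsf4, which encodes OX40, was at 0.951 and 1.07, 30.8 and 31.1 and 429.8 and 345 CPM, so most of its increase came at the second step. Cd83 was at 869 and 902, 1446 and 1226 and 1663 and 1521 CPM.

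Of 16 genes of coinhibition and tolerance 11 were higher and 1 lower (median log2 1.79). Cd274, which encodes PD-L1, went from 7.01 and 9.54 to 114 and 85.5 CPM (log2 3.72, SE 0.16, edgeR adjusted p = 2.74e-12) and was at 132 and 133 in late cells, a second step that did not pass (edgeR adjusted p = 0.0552). Aldh1a2, which makes retinoic acid, went from 0.641 and 0.962 to 4.14 and 5.702 CPM (log2 2.76, SE 0.46). Cd200, an inhibitory ligand, was at 9.49 and 7.83, 28.98 and 29.8 and 116 and 107 CPM. The intermediate libraries were below the late ones for both genes, by the wider margin for Cd200.

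Cytokine signalling genes also shifted. Of 30 JAK, STAT and SOCS genes and cytokine receptors 23 were higher and 1 lower (median log2 0.73). Stat5a was at 10.6 and 12.1 CPM in immature, 65.1 and 40.8 in intermediate and 33.1 and 53.7 in late cells (log2 2.34, SE 0.20). Il15ra, which presents interleukin 15 to lymphocytes, was at 4.07 and 4.098, 10.1 and 13.6 and 124 and 109 CPM (log2 1.72, SE 0.26, edgeR adjusted p = 5.20e-05 and log2 3.31, SE 0.21, edgeR adjusted p = 1.66e-09), and Il15 itself at 13.8 and 14.4, 27.8 and 27.2 and 122 and 117. Both sides of this pair were therefore mainly a feature of the late cells. Of 38 dendritic cell transcription factors 20 were higher and 5 lower, among them Etv3, a repressor, at 119 and 152 and 629 and 568 CPM (log2 2.31, SE 0.10). Irf4 went from 1.59 and 2.16 to 6.51 and 12.7 CPM (log2 2.53, SE 0.34, edgeR adjusted p = 1.20e-05), still far under the 107 and 110.5 CPM of cDC2 at the same gate.

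Chemokines and cytokines were mixed, with 8 of 17 tested genes higher and 2 lower at the first step and 7 higher and 8 lower at the second. Cxcl16, a ligand of CXCR6, went from 109.5 and 113 to 591 and 526 CPM (log2 2.49, SE 0.08). Ccl5, which attracts T cells, was at 69.6 and 103, 323 and 386 and 5821 and 4262 CPM (log2 2.21, SE 0.15, edgeR adjusted p = 1.88e-09, then log2 3.88, SE 0.16, edgeR adjusted p = 4.26e-12), so the larger of its steps was the second. Tnf was at 29.8 and 48.99, 74.5 and 105 and 29.6 and 72.99 CPM and rose by log2 1.34 (SE 0.12), though in library 2 the intermediate and late values lie closer. Il1b did not pass at the first step, at 1265 and 1209 and 1259 and 1198 CPM (edgeR adjusted p = 0.198), and was lower in late cells at 417 and 566 (log2 -1.28, SE 0.09, edgeR adjusted p = 1.15e-08). Intermediate cells thus had the immature level of Il1b and late cells did not.

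Genes that define cDC1 were lower. Of 17 tested, 12 were lower and 1 higher in intermediate cells (median log2 -0.41), and 9 were lower and 3 higher at the next step. Xcr1 was at 487 and 564 CPM in immature, 314 and 369 in intermediate and 202 and 213 in late cells (log2 -0.46, SE 0.07, edgeR adjusted p = 1.04e-04). Naaa, an amidase of lysosomes, was at 1071 and 1069, 546 and 585 and 409 and 370.0 CPM, and Clec9a, the receptor for dead cells, at 291 and 333, 220.0 and 244 and 125 and 144. These 3 were lower at each step in both libraries. Tlr3, a sensor of double-stranded RNA, passed the first test but not the second, at 140.2 and 151, 62.7 and 60.97 and 43.6 and 57.9 CPM (log2 -1.08, SE 0.11, edgeR adjusted p = 2.86e-07, and edgeR adjusted p = 0.318 at the second step). Cadm1, an adhesion molecule, differed the other way round: it was at 335 and 393, 339.5 and 366 and 123 and 178 CPM and passed only the second test (log2 -1.19, SE 0.11, edgeR adjusted p = 1.17e-07). Batf3, the transcription factor that cDC1 need to develop, was at 284 and 283, 243 and 229 and 388 and 362 CPM, and Id2 rose from 809 and 955 to 1232 and 1325 CPM.

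A pair of other groups was mostly lower. Of 19 genes of the unfolded protein response 10 were lower and 1 higher (median log2 -0.27). Sdf2l1, a chaperone partner in the endoplasmic reticulum, was at 371 and 289 and 186 and 161 CPM (log2 -0.76, SE 0.08), and Creld2 at 119 and 99.8 and 65.7 and 59.2 CPM (log2 -0.64, SE 0.10). The exception was Herpud1, at 386 and 392 and 548 and 492 CPM (log2 0.58, SE 0.07, edgeR adjusted p = 6.11e-06). Of 48 cell cycle genes 26 were lower and 3 higher (median log2 -0.42). Top2a, a mitotic topoisomerase, was at 117 and 108 and 55.6 and 75.01 CPM (log2 -0.60, SE 0.12, edgeR adjusted p = 5.86e-04), while Mki67 was at 20.9 and 20.7 and 20.1 and 17.1 (edgeR adjusted p = 0.968). The 3 that were higher were Ccnd2, described above, Cdkn1a, which encodes an inhibitor of cyclin-dependent kinases (15.8 and 15.1 to 161 and 153 CPM), and Mxd1, an antagonist of MYC (16.98 and 17.5 to 225 and 192 CPM).

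By the naming rule the largest decreases with at least 50 CPM in immature cells included that of Tlr3, given above. S100a9, a neutrophil and monocyte gene, was at 71.7 and 57.9 and 16.6 and 18.4 CPM (log2 -1.69, SE 0.15, edgeR adjusted p = 6.52e-08), and all 4 tested neutrophil markers were lower. Il16, a chemoattractant, fell by 1.05 on the log2 scale, Unc119 by 1.02 and Serpinf1 by 0.98. Each of these genes stayed near its intermediate level in late cells, with Il16 for example at 27.2 and 30.3 and 25.3 and 22.7 CPM.

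Beyond the course from low to high, 199 genes (2.18% of those tested) were higher in intermediate than in both immature and late cells, each by its own test, and 38 (0.416%) were lower than in both. Both tests use the same intermediate sums, which favours such genes, and no more is read from these counts. Without cells with a T cell UMI and without doublets the counts were 151 and 31, of which 133 and 24 were shared.

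Cxcl9, a chemokine that draws CXCR3-bearing T cells, was at 386 and 506 CPM in immature, 1413 and 1209 in intermediate and 173 and 348 in late cells (log2 1.75, SE 0.15, edgeR adjusted p = 2.72e-08, then log2 -2.33, SE 0.17, edgeR adjusted p = 9.22e-09). Both intermediate libraries exceeded all 4 others, and the folds were 1.96 and -2.66 without T cell UMIs and doublets. Cxcl10, which binds the same receptor, was at 48.5 and 38.8, 190.5 and 71.9 and 27.02 and 31.04 CPM (log2 1.66, SE 0.18, edgeR adjusted p = 8.09e-07, then log2 -2.06, SE 0.29, edgeR adjusted p = 3.85e-05), with library 1 well above library 2 in intermediate cells. Its intermediate level rests in part on few cells. In 20 of them, subgroup 5 below, it was at 903 CPM, against 85.0 in the rest of the class. Serpina3g, an inhibitor of cathepsins in lymphoid cells, was at 70.5 and 118, 299 and 308 and 47.1 and 107 CPM (log2 1.89, SE 0.14, edgeR adjusted p = 4.59e-09, then log2 -1.97, SE 0.19, edgeR adjusted p = 3.26e-07). It belongs to a cluster of similar serpin genes, so the split of reads among them is uncertain. Jdp2, a repressor of AP-1, was at 35.1 and 34.9, 115 and 85.5 and 31.4 and 30.2 CPM (log2 1.67, SE 0.12, edgeR adjusted p = 2.06e-09, then log2 -1.65, SE 0.19, edgeR adjusted p = 2.76e-06). Jdp2 stood at about the same level before and after the intermediate gate.

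Lrrc32, which encodes GARP, the surface anchor of latent TGF-beta, was at 2.698 and 3.64 CPM in immature, 34.9 and 32.9 in intermediate and 8.72 and 18.5 in late cells (log2 3.57, SE 0.23, edgeR adjusted p = 8.90e-10, then log2 -1.27, SE 0.32, edgeR adjusted p = 0.00645). Gm19951 was at 11.9 and 13.6, 44.96 and 49.6 and 13.1 and 20.97 CPM. Nr4a3, an immediate early nuclear receptor, was at 176 and 240.4, 547 and 537 and 357 and 373 CPM, and Odc1, which starts polyamine synthesis, at 152 and 168, 274 and 289 and 146 and 138 CPM. In both libraries these genes were highest in the intermediate cells. The T cell genes Trbc2, Cd3d and Ms4a4b and the hemoglobin gene Hba-a2 met the same criterion. Trbc2 was at 3.27 and 3.78, 44.4 and 57.02 and 2.62 and 2.52 CPM (log2 4.01, SE 0.19, edgeR adjusted p = 5.90e-12). Once cells with a T cell UMI were removed, Ms4a4b in intermediate cells went from 32.5 and 42.1 to 1.395 and 0.526 CPM, below the immature level of 2.55 and 3.03, whereas Cxcl9 stood at 1494 and 1319 CPM and Il12b at 1300.3 and 1195.

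The 250 bases before the start of 5 genes are printed. Among 8 genes named as above both neighbours that have a window in the table, the 3 shown are those with a match to the letters below, while Jdp2 (3 windows), Gm19951, Ms4a4b, Cd3d and Hba-a2 had none. Of 3 markers in the table, Apol7c with a match and Il12b without are shown, and Ccl22 had none either. They are from RefSeq on build GRCm38.p6, read 5′ to 3′ on the gene's own strand. Capitals mark letters that match GGNNTTTCC (the core of an NF-kB motif), GAAANNGAA (the core of an interferon response element) or TGACNNNGC (an antioxidant response element), searched on both strands.
Cxcl9, chr5:92328080-92328329, minus strand: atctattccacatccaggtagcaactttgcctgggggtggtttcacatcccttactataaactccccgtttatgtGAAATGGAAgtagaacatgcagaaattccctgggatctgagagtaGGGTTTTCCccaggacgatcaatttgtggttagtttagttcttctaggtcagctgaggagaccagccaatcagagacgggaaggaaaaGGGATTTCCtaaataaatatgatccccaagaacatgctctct
Cxcl10, chr5:92348890-92349139, minus strand: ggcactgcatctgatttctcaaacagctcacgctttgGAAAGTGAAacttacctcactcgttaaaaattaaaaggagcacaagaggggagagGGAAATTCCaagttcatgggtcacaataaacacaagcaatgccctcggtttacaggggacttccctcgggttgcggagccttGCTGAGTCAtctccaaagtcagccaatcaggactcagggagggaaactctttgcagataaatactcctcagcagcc
Serpina3g, chr12:104235897-104236146, plus strand: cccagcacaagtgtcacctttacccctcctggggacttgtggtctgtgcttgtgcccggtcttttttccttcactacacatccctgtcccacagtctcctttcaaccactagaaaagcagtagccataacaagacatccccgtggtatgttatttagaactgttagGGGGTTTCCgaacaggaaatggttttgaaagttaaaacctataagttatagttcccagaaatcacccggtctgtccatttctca
Apol7c, chr15:77533316-77533565, minus strand: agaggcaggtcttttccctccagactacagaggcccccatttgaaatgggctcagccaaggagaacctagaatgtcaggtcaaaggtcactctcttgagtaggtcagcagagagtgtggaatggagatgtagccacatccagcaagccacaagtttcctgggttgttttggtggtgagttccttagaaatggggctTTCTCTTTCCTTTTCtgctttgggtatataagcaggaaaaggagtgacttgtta
Il12b, chr11:44399813-44400062, plus strand: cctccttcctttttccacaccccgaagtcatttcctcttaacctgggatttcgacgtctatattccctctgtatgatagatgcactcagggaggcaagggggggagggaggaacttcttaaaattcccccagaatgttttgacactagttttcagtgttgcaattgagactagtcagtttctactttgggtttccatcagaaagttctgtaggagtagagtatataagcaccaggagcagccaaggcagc

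Of 32851 promoter windows of the same length, 4.93% held the NF-kB letters, 7.13% the interferon letters and 10.2% the antioxidant letters. Cxcl9 had the NF-kB letters with their first base 130 and 42 bases before its start, and the interferon letters at 175. Cxcl10 had the NF-kB letters at 158, the interferon letters at 213 and the antioxidant letters at 76. Serpina3g had the NF-kB letters at 84, and Apol7c had 2 overlapping matches of the interferon letters, at 54 and 48. No match to these letters lay in the window of Il12b, from which nothing follows about the factors. A match describes letters and is not a binding site.

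Of 14 interferon gamma-inducible genes 12 were higher and 1 lower than in immature cells (median log2 1.74). Gbp4, a guanylate-binding protein, was at 3.45 and 5.03 CPM in immature, 64.5 and 43.4 in intermediate and 170.0 and 163 in late cells (log2 3.77, SE 0.22, edgeR adjusted p = 1.16e-10, then log2 1.70, SE 0.19, edgeR adjusted p = 2.52e-06), and Gbp5 at 2.99 and 5.33, 34.3 and 40.8 and 63.6 and 101. The guanylate-binding proteins are close relatives, so their split of reads is uncertain. Irf1 was at 34.9 and 46.03, 103 and 85.5 and 354 and 465 CPM. At the second step 7 of the list were higher and 4 lower, and Irgm1, Ifi47 and Serpina3g were above both neighbours, as Cxcl9 was. Of 28 type I interferon-stimulated genes 12 were higher and 3 lower (median log2 0.35), or 9 and 6 when scaled by library totals. Isg15 was at 42.5 and 46.2 and 121 and 90.4 CPM (log2 1.40, SE 0.17), and Irf7 at 69.95 and 83.2 and 85.8 and 70.6 (edgeR adjusted p = 0.316). Some of these levels rest in part on the 20 cells of subgroup 5 below. There Isg15 was at 919 CPM against 64.1 in the rest of the class, and Ifi47 at 182 against 11.6.

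RNA of part of the MHC class II pathway was highest at the intermediate gate. Of 17 genes of this pathway 9 were higher and 4 lower than in immature cells (median log2 0.32), 12 were lower and 3 higher at the second step (median log2 -0.50), and 6 were above both. Cd74, the invariant chain, was at 26638 and 27299 CPM in immature, 30978 and 29858 in intermediate and 20824 and 20289.9 in late cells (log2 0.34, SE 0.04, edgeR adjusted p = 2.28e-06, then log2 -0.53, SE 0.04, edgeR adjusted p = 1.54e-08). The structural genes H2-Aa and H2-Eb1 followed, with H2-Aa at 10562 and 10557, 12403 and 11444 and 7527 and 7693 CPM (log2 0.34, then -0.61). For H2-Ab1, at 12308 and 12102 and 12359 and 11390.3 CPM, the first step was log2 0.13 (edgeR adjusted p = 0.049), and it turned to -0.04 with library totals, under which Cd74 kept 0.17 and H2-Aa 0.17. Ciita, the master activator of these genes, was already lower, at 273 and 301, 157 and 186 and 113 and 128 CPM (log2 -0.57, SE 0.08, edgeR adjusted p = 2.45e-05). So was March1, the ligase that removes class II from the surface, at 140.1 and 146, 65.1 and 68.4 and 47.9 and 43.6 CPM. H2-Eb2 rose at both steps, at 4.89 and 6.13, 65.7 and 56.1 and 118 and 148 CPM, and Ifi30, a thiol reductase that opens antigens in lysosomes, at 407 and 389, 945 and 793 and 1652 and 1439.6.

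MHC class I genes had another pattern, with 13 of 24 higher and 2 lower at the first step and 16 higher and 4 lower at the second. B2m, the shared light chain, was at 1597 and 1644 CPM in immature, 2292 and 2145 in intermediate and 4174 and 3815 in late cells. Nlrc5, their transactivator, was at 17.3 and 23.4, 70.98 and 64.5 and 145 and 128 CPM (log2 1.88, SE 0.15, edgeR adjusted p = 2.07e-08). Both libraries were in the order immature, intermediate, late for each of the pair.

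Lower than in both neighbours were, among others, Irf8 and Ccnd1. Irf8, the transcription factor that sustains cDC1, was at 2059 and 2233 CPM in immature, 1251 and 1472 in intermediate and 1591 and 1755 in late cells (log2 -0.49, SE 0.06, edgeR adjusted p = 1.40e-06, then log2 0.34, SE 0.06, edgeR adjusted p = 2.14e-04). Ccnd1, cyclin D1, was at 187 and 195, 88.7 and 129.8 and 118 and 179 CPM (log2 -0.65, then 0.47), with library 2 of the intermediate cells above library 1 of the late ones. By the naming rule the set also included I830077J02Rik (55.1 and 54.7, 31.4 and 31.6 and 48.8 and 72.1 CPM), Dipk1a, Gpr108, Naxe, Rnd3 and Shkbp1.

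The second comparison asked what separates late from intermediate cells. It shares the intermediate sums with the first. Of 9137 genes 1348 were higher (14.8%) and 947 lower (10.4%) in late cells by the same edgeR test. Without T cell UMIs and doublets the counts were 1546 and 1367, of which 1253 and 818 were shared. Genes still low in intermediate cells, beside Ccl5, included Insm1 (4.14 and 2.19 CPM, then 74.97 and 54.5), Synpo2, an actin-binding protein (3.55 and 3.51, then 71.5 and 57.9), Slco5a1, a transporter (4.73 and 7.896, then 76.7 and 75.5), Ankrd33b (14.8 and 19.7, then 180.4 and 219) and Anxa3, an annexin (47.3 and 30.7, then 427 and 373). Tspan3, a tetraspanin, was at 24.7 and 22.7, 136 and 107 and 857 and 653 CPM. The actin and migration list had 21 of 33 genes higher and 3 lower at the first step (15 and 5 by library totals) and 19 and 7 at the second, with Vim, vimentin, at 235 and 240.0, 264 and 421 and 972 and 1119 CPM.

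**Figure D3:**
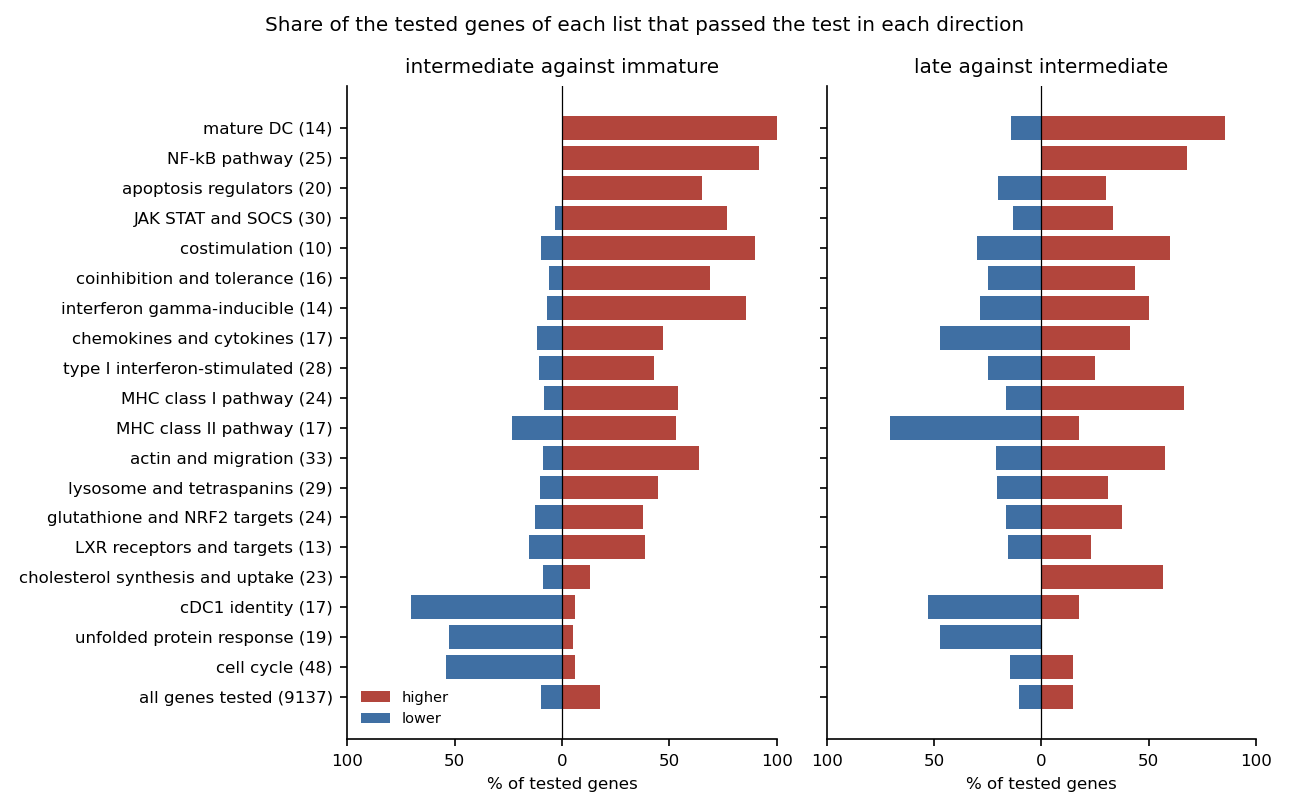
Percent of tested genes in each gene list that were higher (to the right) or lower (to the left) at the first step, immature to intermediate, and at the second, intermediate to late. Of the NF-kB genes 23 of 25 are higher at the first step and 17 at the second, and of the cholesterol genes 3 of 23 and then 13.

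Cholesterol synthesis and uptake belonged to the second step. Of 23 genes 3 were higher and 2 lower in intermediate than in immature cells (median log2 -0.02), and 13 rose and 0 fell from there to late cells (median log2 0.87). Idi1, an isomerase of the pathway, was at 17.8 and 16.6 CPM in immature, 21.3 and 15.8 in intermediate and 99.4 and 63.8 in late cells (edgeR adjusted p = 0.386 for the first step; log2 2.19, SE 0.21, edgeR adjusted p = 3.42e-07 for the second). Fdft1 was at 11.9 and 11.1, 9.46 and 10.5 and 32.3 and 29.4 CPM. For Idi1 the intermediate and immature libraries overlapped, and for Fdft1 both intermediate libraries were below the immature ones.

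The LXR list was split, with 5 of 13 tested genes higher and 2 lower at the first step (median log2 0.15, or -0.01 by library totals) and 3 higher and 2 lower at the second. Abcg1, the exporter that LXR induces, was at 31.98 and 33.3 CPM in immature, 71.6 and 64.04 in intermediate and 257 and 207 in late cells (log2 1.21, SE 0.12, edgeR adjusted p = 4.43e-07, then log2 1.82, SE 0.13, edgeR adjusted p = 7.12e-09). Mylip, a ubiquitin ligase, was at 16.3 and 13.6, 22.5 and 29.4 and 25.3 and 31.04 CPM (log2 0.99, SE 0.18, edgeR adjusted p = 4.35e-04). Arl4c was at 26.3 and 26.4, 63.9 and 68.9 and 187 and 133 CPM. These 3 targets were above the immature level in both intermediate libraries. Apoe, the lipid carrier, was above both neighbours, at 68.8 and 67.5, 268 and 107 and 81.9 and 70.5 CPM (log2 1.53, SE 0.19, edgeR adjusted p = 4.29e-06), with library 1 at more than 2 times library 2. Scd2, a desaturase, was lower at 26.7 and 23.4 and 8.28 and 13.2 CPM (log2 -1.01, SE 0.21). Of the receptors, Nr1h2 was at 54.8 and 54.7 and 57.97 and 54.8 CPM (edgeR adjusted p = 0.204), and Nr1h3 and the exporter Abca1 were too low to test.

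Genes around Gclc varied. Of 24 tested genes of glutathione metabolism and NRF2 targets 9 were higher and 3 lower (6 and 4 by library totals). Gclm, the partner subunit of Gclc, was at 32.7 and 33.3 CPM in immature and 33.1 and 31.1 in intermediate cells (edgeR adjusted p = 0.573). Gsr, which regenerates glutathione, went from 26.9 and 24.3 to 47.3 and 36.8 CPM (log2 0.87, SE 0.14, edgeR adjusted p = 1.24e-04).

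Within the gate, cells with more Ccr7 had more of the other markers, as described here with no test because depth and the gate enter both. At 2 Ccr7 UMIs Il12b stood at 154 and 140.4 CPM, at 5 to 9 at 583 and 903, and at 20 or more at 3665 and 2871. Gclc went from 106 and 147 to 1299 and 942 CPM over the same range, and Xcr1 from 432 and 484 to 192 and 269.9. At 20 or more, Il12b and Gclc were thus above the late class, which stood at 1387 and 1461 and at 792 and 817 CPM. Without T cell UMIs and doublets late Gclc was at 1116 and 1042 CPM. Cxcl9 had another course, from 384 and 510.2 CPM at 0 Ccr7 UMIs to 843 and 1150.3 at 2, 1719 and 1453 at 3 to 4, and 996 and 851 at 20 or more. Both genes were above their level at 0 Ccr7 UMIs in the cells with 2, and Il12b went on upward where Cxcl9 did not.

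**Figure D4:**
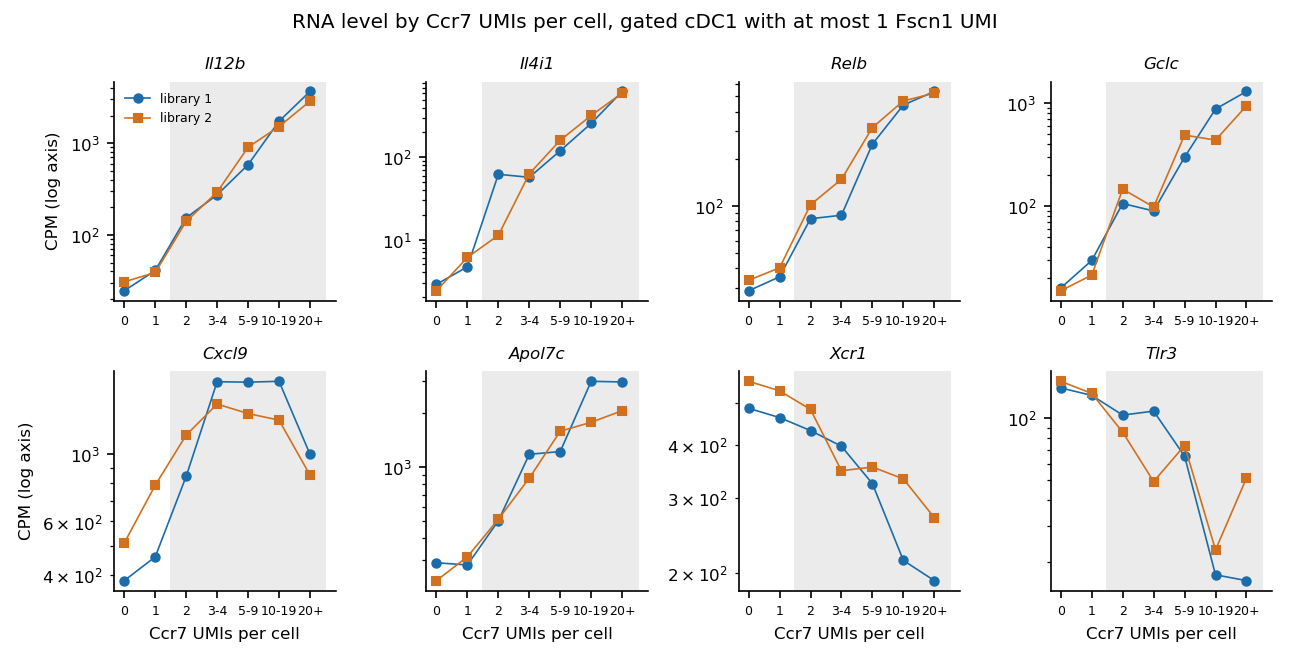
Level of 8 genes (CPM, log axis) in gated cDC1 by Ccr7 UMIs per cell, 1 line per library, with the range of the intermediate gate in grey. Il12b and Gclc climb along the gate, while Cxcl9 is highest between 3 and 19 and is at 996 and 851 CPM at 20 or more.

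The 431 cells were not uniform. Clustering them alone gave 7 subgroups, named by number and described by their leading genes without tests. Subgroups 1, 2, 4 and 6 held 101, 87, 87 and 69 cells and differed in Ccr7, at 1945, 854, 352 and 3545 CPM. Subgroup 6 was nearest to late cells, with Il4i1 at 1269 CPM, Cd63 at 590 against 36.7 in the others, and Xcr1 at 125. Its Il12b, at 3648 CPM, and its Gclc, at 1664, were above the late levels of 1387 and 1461 and of 792 and 817. Its median was 5444 RNA UMIs per cell, against 7826, 8714 and 10155 in subgroups 1, 2 and 4. Subgroup 1 was high in Il12b (2278 CPM), Gclc (879), Serpinb1a and Spic, and subgroup 2 in Cxcl9 (2328), Jdp2 and Cd207. Subgroup 4 was the lowest in Il12b among these, at 155 CPM.

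The other 3 subgroups were small. Subgroup 5, with 20 cells, was led by interferon-stimulated genes, with Isg15 at 919 CPM against 64.1 in the others, Irf7 at 567 and Cxcl9 at 7267, and held 0 doublets. Subgroup 3, with 28 cells and a median of 15676 RNA UMIs, was led by hemoglobin and mitotic genes, with Top2a at 426 CPM. Of its cells 7 were called doublets. In subgroup 7 all 39 cells held a T cell UMI and 23 were called doublets. It carried Trbc2 at 496 CPM and the T cell antibodies CD90 and CD8b at 290.2 and 351 per 10000 antibody UMIs, with Il12b at 84.4 CPM. Its antibodies IA_IE and CD83, at 1075 and 1.36 per 10000, were below the immature levels of 1489 and 1265 and of 2.05 and 2.34. Hemoglobin itself was uneven, since the top 3 intermediate cells held 89.9% and 79.3% of its 2255 and 1097 UMIs. All 5 tested erythroid genes were above both neighbours, and in the sums Hbb-bs was at 177 and 237, 651 and 239.5 and 31.4 and 85.6 CPM, so these calls rest on few cells.

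Surface proteins gave a readout that the RNA gate had not used. Levels are antibody UMIs per 10000 antibody UMIs of the class. Intermediate cells had 1526 and 1395 antibody UMIs per cell, against 1182 and 1068 in immature and 1712 and 1518 in late cells. Of 170 antibody features tested, 9 of them isotype controls and XCR1 and CD172a left out, 24 were higher (14.1%) and 18 lower (10.6%) than in immature cells by edgeR, and at the second step 19 rose (11.2%) and 17 fell (10%). No isotype control was called at either step. Of the 24 that were higher, 20 lay above the highest isotype level, 1.78 per 10000 for IgG1_Rat_k in immature cells, with IgG1_Rat_l set aside. In immature cells of library 2, 1 cell held 63.7% of the IgG1_Rat_l UMIs. In intermediate cells IgG1_Rat_l was at 2.33 and 2.57 per 10000. CD3 (1.58 and 2.17) and CD122 (2.04 and 1.88), counted among the 20, lay under that. Scaled by antibody totals alone, the splits were 19 and 28, and 13 and 33. The barcodes of the 5 proteins described first are shown because their counts are the values that follow.
CD83: tctcaggcttcctag
CD86: ctggatttgtgtatc
CD274: tcgattccaccaact
CD63: atccgacacgtatta
IA_IE: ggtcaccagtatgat

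CD83, a maturation marker, was at 2.05 and 2.34 per 10000 in immature, 8.35 and 8.62 in intermediate and 12.1 and 11.5 in late cells (log2 2.08, SE 0.17, edgeR adjusted p = 1.07e-06). CD86 was at 107 and 104, 216 and 218 and 205 and 208 per 10000 (log2 1.17, SE 0.06, edgeR adjusted p = 8.53e-09). At the second step edgeR called CD86 higher (log2 0.19, edgeR adjusted p = 0.0331) although the level per 10000 was lower in both late libraries, so its direction there depends on the scaling. Its RNA was lower in late than in immature cells. IA_IE, which reads MHC class II, was at 1489 and 1265, 2864 and 2502 and 3802 and 3278 per 10000 (log2 1.10, SE 0.04, edgeR adjusted p = 6.88e-10, then log2 0.67, SE 0.04, edgeR adjusted p = 7.84e-08), a protein the sort also required. Here the late cells were the highest, while the summed RNA of their class II list was the lowest of the 3 classes.

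CD274 was at 14.7 and 20.8, 29.9 and 37.1 and 55.7 and 68.6 per 10000 (log2 1.06, SE 0.11, edgeR adjusted p = 1.19e-05, then log2 1.16, SE 0.11, edgeR adjusted p = 4.21e-06). CD63 was at 3.93 and 3.77, 15.2 and 6.62 and 125 and 74.8 (log2 1.52, SE 0.19, edgeR adjusted p = 6.68e-05, then log2 3.51, SE 0.20, edgeR adjusted p = 6.67e-08), with library 1 at more than 2 times library 2 in intermediate cells. CD197, the CCR7 protein, did not pass at the first step, at 1.35 and 1.61 and 1.65 and 1.71 per 10000 (edgeR adjusted p = 0.421), and was at 4.88 and 3.95 in late cells (log2 1.66, SE 0.24, edgeR adjusted p = 1.80e-04). In intermediate cells the isotype controls IgG1_Rat_k and IgG1_Rat_l were at 1.29 and 1.59 and at 2.33 and 2.57 per 10000, so CD197 there lay between them.

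**Figure D5:**
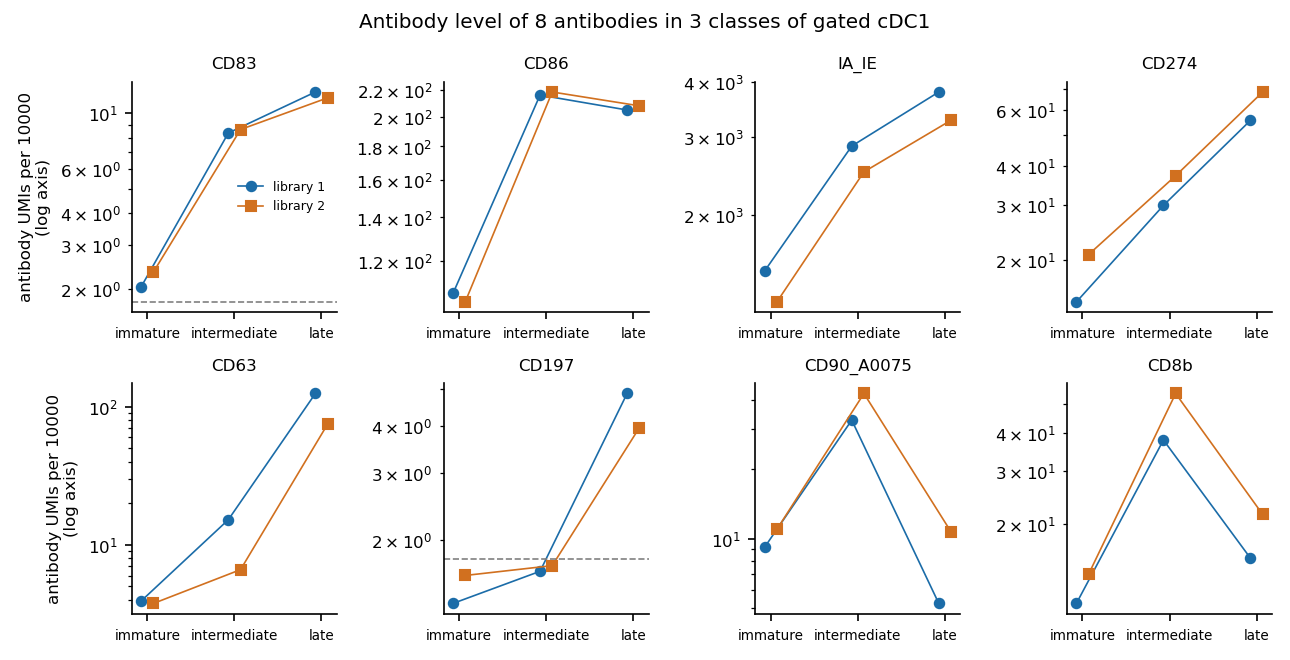
Level of 8 antibodies (UMIs per 10000 antibody UMIs, log axis) in the 3 cDC1 classes, 1 point per library. The dashed line is the highest isotype level with IgG1_Rat_l set aside (1.78, or 4.69 with it). CD86 and CD83 are raised in intermediate cells, and CD197 is above that line in late cells (4.88 and 3.95).

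T cell proteins moved with the T cell RNA. CD90 was at 9.195 and 10.98 per 10000 in immature and 32.6 and 42.6 in intermediate cells, and at 5.704 and 7.404 once cells with a T cell UMI were removed. CD8b went from 37.97 and 54.2 to 9.39 and 10.95 per 10000 by the same removal. After it, 14 antibodies were higher and 13 lower, of which 11 and 11 were shared with the first counts, and CD86 stood at log2 1.34 and CD83 at 2.31. With doublets removed too, 10 were higher and 4 lower, of which 8 and 4 were shared. CD24, CD9, CD48 and CD102 were lower in intermediate cells in each of the 3 counts, with CD9 at 140.2 and 164 and 79.3 and 96.9 per 10000 (log2 -0.66) and CD24 at 597 and 622 and 381 and 428 (log2 -0.46). CD8a, a cDC1 surface marker, was at 724 and 812 and 532 and 593 per 10000 (log2 -0.32), while per cell it was at 85.6 and 86.7 and 81.2 and 82.8 UMIs.

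The same RNA gates applied to cDC2 (CD172a antibody at least 3, XCR1 at most 2) gave 352 and 350 cells, and the step from immature to intermediate was compared between the lineages by the difference of the steps. Of 9712 genes 501 (5.16%) had a higher step in cDC1 and 97 (0.999%) a lower one by edgeR, or 521 and 134 without T cell UMIs and doublets. The 2 gates need not pick equivalent cells, as the Il12b and Gclc levels above show. Vcam1, an adhesion molecule, went from 5.02 and 6.26 to 45.5 and 57.9 CPM in cDC1 and from 33.8 and 14.8 to 1.83 and 3.703 in cDC2 (difference log2 6.36, SE 0.57, edgeR adjusted p = 4.48e-07). Ehf, an epithelial-type ETS factor, went from 0.133 and 0.221 to 15.97 and 8.33 CPM in cDC1 and from 18.02 and 17.4 to 23.8 and 25.9 in cDC2 (difference log2 5.46, SE 0.48, edgeR adjusted p = 3.09e-07). Abcg1 also differed, with 38.2 and 34.6 and 35.4 and 29.00 CPM in cDC2 (difference log2 1.27, SE 0.20, edgeR adjusted p = 4.02e-04). Ccnd1 moved in opposite directions, from 690.3 and 706 to 959.6 and 865 CPM in cDC2 against 187 and 195 to 88.7 and 129.8 in cDC1 (difference log2 -1.15, SE 0.19, edgeR adjusted p = 5.21e-04), and so did Tspan13, a tetraspanin, from 418 and 386 to 565 and 484 and from 347 and 347 to 195 and 224 CPM.

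Markers of other cells were counted too. Of 5 monocyte genes 1 was higher and 3 lower, or 0 and 4 without T cell UMIs and doublets. The red pulp macrophage list had 2 of 3 tested genes higher, Vcam1 and Spic, and Spic was at 1.61 and 1.09 CPM in immature and 36.1 and 28.1 in intermediate cells (log2 4.74, SE 0.23, edgeR adjusted p = 1.45e-11). Hmox1, the third, was at 26.2 and 30.9 and 18.3 and 42.1 CPM (edgeR adjusted p = 0.517). Of 7 cDC2 genes 5 were higher and 0 lower, with Ltb at 12.96 and 14.4 and 67.4 and 71.1 CPM in cDC1 against 539 and 486 in cDC2. The summed cDC2 list was at 139 and 217 CPM in intermediate and 85.2 and 100.9 in immature cells.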

How the data were processed

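RNA and surface proteins of spleen cells were counted in 2 libraries. The deposited values are raw UMI counts of genes and antibodies in each cell, whole numbers that the authors had not normalized, in a matrix that Cell Ranger 3.1.0 wrote with both libraries aggregated, per the file headers. The submitters' processing notes name STAR, Cell Ranger, Seurat 3.1.4 and mm10, and the sources used here do not say whether aggregation equalised depth. Libraries were told apart by barcode suffix.

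The quality filter asked for 500 genes, 1000 RNA UMIs and less than 10% mitochondrial UMIs, and doublets, called with Scrublet in scanpy 1.11.5 (Python 3.11.15), were kept in the main sums. For each class and library the counts were added up, and edgeR 4.0.16 in R 4.3.3 tested these sums (quasi-likelihood, TMM, filterByExpr for genes, at least 100 UMIs for antibodies, library as a block, two-sided, Benjamini-Hochberg over all features at 0.05). The 3 cDC1 classes shared a fit, and 6 classes shared the fit that compared cDC1 with cDC2. Standard errors (SE) were taken as the log2 value over the root of its F statistic. Same-numbered sums are different cells of 1 library, so the library block pairs them. Ccr7, Fscn1, Cd3e, Cd79a and the 4 other proposed markers got no test, nor did the antibodies XCR1 and CD172a. The scripts were tested on simulated data. Subgroups came from 1000 variable genes, 15 components, 15 neighbours and Leiden resolution 0.5.

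The cells, gene lists and tests were chosen with earlier results of these data known. Named were the 10 highest and 6 lowest folds of each step with at least 50 CPM in the higher class, the 10 and 6 leading genes above or below both, the 5 largest differences to cDC2 in each direction, and the 3 largest folds of each list. Other list members were named after their values were seen. Dscaml1 and Cd70 rest on a few immature UMIs and are not described, and some genes are not reported here. Alternatives were DESeq2 1.42.0, RLE scaling, library totals, no filter, no block, other gates and thinning to 3000 UMIs with lowered Ccr7 and Fscn1 cutoffs. Others were doublet removal, leaving out each library, and, added after seeing the data, removal of cells with a T cell UMI. Depth is given with the results, and intervals are exact binomial ones at 95%.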

Additional observations from a re-analysis of the deposited data

Results flagged for a closer look

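Genes were singled out here because their step from immature to intermediate differed between cDC1 and cDC2 by a test of the difference itself, which 598 of 9712 genes passed in edgeR. Differences are those of the log2 steps, cDC1 minus cDC2. Vcam1 had the largest at 6.36, followed by Mab21l3 at 5.72, Ehf at 5.46, Glipr2 at 4.90 and Fnbp1l at 4.44. Mab21l3 and Fnbp1l were nearly absent from cDC2, at 0.688 and 0.393 and 1.93 and 2.36 CPM in immature and 0 and 0.617 and 0.6104 and 0.617 in intermediate cells, so the size of their differences rests on very few UMIs. Glipr2 was at 13.8 and 14.4 and 8.55 and 18.5 CPM in cDC2.

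In the other direction stood Slc4a8, a bicarbonate transporter, at -1.64 (4.402 and 8.92 to 21.4 and 35.8 CPM in cDC2), Nostrin at -1.26, 2810025M15Rik at -1.24, Ccnd1 at -1.15 and Tspan13 at -1.07. With 2 libraries no group was large enough to test for a single library that stands apart.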

How the results depend on the processing

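Of the named genes, 3946 values under the alternatives were counted as unchanged, 147 lost the call, 56 gained it and 15 reversed. Unchanged means the same direction and side of the threshold. For the 247 values without library 1 and the 247 without library 2, which had no test, it means direction alone. The intermediate against immature count of 2511 genes became 1353 with DESeq2 and 1476 with a stricter antibody gate (XCR1 at least 6, CD172a at most 1). Its split of 1636 higher and 875 lower was 1072 and 281 with DESeq2 and 1332 and 1433 with no filter. The late against intermediate count of 2295 became 1528 and 593. The 199 genes above both became 96 and 101, 320 with Ccr7 at least 3 and 95 after thinning. The 38 below both became 11 and 15, 66 with Ccr7 at least 3, 10 after thinning, 68 with the gate per 10000 UMIs and 95 with library totals. The 598 genes that differed between the lineages became 379 with the stricter antibody gate, 362 after thinning and 1063 with the gate per 10000 UMIs. Thinning also came with lowered Ccr7 and Fscn1 cutoffs, so its values are not those of depth alone. The cause was not tested.

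The replicate block pairs sums of the same library. With no replicate block the counts were 2027 and 1831 genes for the steps, 16 below both, and 14 and 20 antibodies in place of 42 and 36. Genes whose step was lower in cDC1 than in cDC2 numbered 61 in place of 97, and no other count over all genes moved by more than 1.5 times.

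The 42 antibodies of the first step became 27 without Scrublet doublets, 27 without cells with a T cell UMI, 14 without both, 8 with the stricter gate and 4 with isotype controls as library size, whose UMIs are few. The 36 of the second step became 8 with the stricter gate and 1 with isotype controls. The share of 3.28% and 2.96% was 5.36% and 4.28% after thinning, 2.66% and 2.23% with Ccr7 at least 3, and 2.46% in library 2 without T cell UMIs and doublets.

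Reversed were, with the stricter gate, Hba-a2 (-0.10), Hbb-bs (-0.39), Hbb-bt (-0.32) and, at the second step, Cd40 (-0.47) and Cflar (-0.072). Leaving out a library, Hbb-bt ranged from -0.26 (without library 1) to 1.98, and the second step of Cd40 from -0.038 (without library 2) to 0.99. Without T cell UMIs Nkg7 was at -0.94. Ly6c2, a monocyte gene also made by T cells, was at -0.17 without doublets, -1.79 without T cell UMIs and -1.70 without both. The second step of Ltb was 0.010 without doublets, 0.37 after thinning and 0.14 without T cell UMIs and doublets, and that of Bcl2a1b 0.15 after thinning. Leaving out a library left 1 sum per class and no residual degrees of freedom, so those folds are values with no test and no counts of genes were made. Depth limits genes under a few CPM, since 1 UMI in the intermediate sums is 0.59 and 0.44 CPM.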

Other observations

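Other gene groups of the intermediate cells were also counted, where 17.9% of all tested genes were higher and 9.58% lower than in immature cells. Of 7 tested serpins 4 were higher and 2 lower than in immature cells. Serpinb9, which blocks granzyme B, was at 81.4 and 96.7 CPM in immature, 363 and 372 in intermediate and 654 and 709 in late cells (log2 2.21, SE 0.08, edgeR adjusted p = 2.79e-13), and Serpinb1a at 11.6 and 10.4, 54.4 and 28.95 and 120.3 and 145. Of 29 lysosome and tetraspanin genes 13 were higher and 3 lower, with Laptm4b at 29.7 and 32.2, 88.1 and 69.3 and 198 and 209.7 CPM and Cd81 at 447 and 419.6, 625 and 546 and 772 and 841. Of 10 genes of tryptophan and arginine breakdown 5 were higher and 1 lower. The one that was lower was Kmo, an enzyme of the kynurenine pathway, at 54.6 and 51.3, 35.5 and 29.8 and 19.2 and 15.1 CPM.

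Of 13 toll-like receptor genes 1 was higher and 4 lower, among them Tlr11, a sensor of profilin, at 74.3 and 80.6 and 50.9 and 53.5 CPM. Of 11 chemokine and lipid receptors 2 were higher and 4 lower, with Cxcr4 at 97.2 and 72.8 and 109 and 83.8 CPM (log2 0.35, SE 0.10, edgeR adjusted p = 0.0106) and Cxcr3, the receptor of Cxcl9, at 38.2 and 40.7 and 15.4 and 19.3. Of 18 glycolysis genes 3 were higher and 2 lower, near the shares over all genes, or 2 and 8 by library totals. Immediate early and heat shock genes were split, with 8 of 31 higher and 9 lower, and Egr1 was at 222 and 324 and 111 and 144 CPM (log2 -0.93, SE 0.09, edgeR adjusted p = 1.78e-07).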
